A study of Homo sapiens with 15 samples.

Results

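KO-2 and KO-4 are clones of HCT116, an established human colon cancer cell line, and both carry the label bktRNA1-deficient. Here they were set directly against each other: the 3 KO-2 libraries against the 3 KO-4 libraries, which are 6 of the 15 libraries in the series. The labels do not describe bktRNA1 or how it was disrupted, and its level was not analysed here. Wild-type HCT116 cells (WT) and the clones KO-1 and KO-3, also labelled bktRNA1-deficient, entered no test and appear only as values beside the members. The study set each clone against WT. The direct comparison asks how far 2 clones with 1 labelled genotype differ from each other. Its p-values therefore compare 2 isolates over 3 independent experiments each, and a difference between isolates and a difference in the deficiency itself cannot be told apart.

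Introns were taken where both clones' tables list the same position and strand. Of 107165 introns listed for either clone, 95157 were listed for both, and 25145 of these, in 7043 genes, averaged 10 or more reads of each kind, retained and spliced, over the 6 libraries and were tested. Spliced reads were also summed per gene name. Of 11452 gene names with an intron in both tables, 10174 had a mean of at least 50 summed reads and were tested. The junction reads per library numbered 29329108, 32546429 and 36349845 in KO-2, and 33208366, 32711056 and 30378031 in KO-4, in the order listed. Between 13.3% and 13.9% of them were retained reads in KO-2, and between 13.6% and 13.8% in KO-4. Of 9 colon epithelial markers, 8 were tested, and their summed level was 4937 to 5269 CPM (spliced reads scaled by library size, the unit of all gene levels here) in KO-2 and 5406 to 5719 in KO-4. KRT19, EPCAM and CLDN4 were lower in KO-2 (log2 -0.29, -0.40 and -0.71, limma adjusted p = 7.14e-06, 0.00176 and 0.00481). CDH1, CDX2, CLDN7, KRT8 and KRT18 did not pass the test. COL1A1 was the 1 fibroblast marker of 6 that was tested, at 41.5 to 48.8 CPM in KO-2 and 60.1 to 64.1 in KO-4 (log2 -0.44, limma adjusted p = 2.90e-05). CORO1A was the 1 leukocyte marker of 5, at 13.7 to 16.5 in KO-2 and 27.4 to 33.0 in KO-4 (log2 -0.999, adjusted p = 9.19e-08). None of 4 endothelial markers was tested.

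An intron is cut out of a transcript by the spliceosome, which recognises its ends and joins the flanking exons. A transcript that keeps an intron is said to retain it. Such RNA often stays in the nucleus or is degraded after a premature stop codon is read, and its share differs widely from intron to intron. A small class of introns, the U12-type, is cut by a separate minor spliceosome. HCT116 is of epithelial origin and lacks DNA mismatch repair. In these tables a read across an exon-intron boundary counts as retained and a read across the joined exons counts as spliced. The retention level is the share of retained reads after each kind is divided by the number of positions at which it can be seen. A read at the boundary also arises where a transcript starts, ends or has another exon inside the intron, so the introns described below are given, in most cases, with whether the annotation has an exon inside.

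Among the introns with the largest differences were 4 with retained reads in KO-4 that KO-2 spliced nearly completely, in MID1, HOMER3, SUN1 and STK16. Another was the last intron of TRIM62, which KO-2 retained and KO-4 did not. Of these introns, only that of MID1 has an annotated exon inside. The joined exon sequence that a spliced read crosses at each of these introns is shown because every result on them counts reads over this point. The 3 bases at the end of the upstream exon and the first 3 of the downstream exon are in capitals. Sequences are from GENCODE 29 transcripts on GRCh38 (hg38), read in the direction of the gene.
MID1, intron 2, chrX:10567604-10620289, minus strand: ctaaacatgaggCAGATAgctgatcagctt
HOMER3, intron 7, chr19:18931626-18931975, minus strand: cggctgcggcagCGGGTGgctgagctggag
SUN1, intron 11, chr7:852953-853408, plus strand: aagcagcctctgCAGGGTgacagtgaggct
STK16, intron 4, chr2:219247247-219247414, plus strand: gggttatgcccaCAGAGActtgaagcccac
TRIM62, intron 4, chr1:33147728-33158252, minus strand: aggacatccaccCAGTGCcagccgccctaa
The exon bases on both sides are coding in the listed transcript for all but MID1. For SUN1 other annotated transcripts cover the intron's ends, which read GTaagagggtag at the start and ttgccatttcAG at the end, with the first and the last pair of bases in capitals.

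MID1 encodes a microtubule-associated E3 ubiquitin ligase. Its intron 2 of 10 is 52686 bases long and has an annotated exon inside, so its boundary reads can come from transcripts that use that exon, which was not tested. It was retained at 0.917%, 0% and 0.448% in KO-2, against 90.5%, 87.3% and 73.3% in KO-4. The 2 retained reads of 268 in KO-2 give a share of 0.746% (95% exact binomial interval 0.0905% to 2.67%), and the 167 of 184 in KO-4 give 90.8% (85.6% to 94.5%). Such intervals cover counting error only. The log2 odds of retention were 10.28 lower in KO-2 by these counts (exact interval -13.45 to -8.22). The quasi-binomial model, whose estimate also sums the reads of each clone, gave -10.35 ± 1.42 (SE, adjusted p = 1.64e-36). Its SE comes from the summed counts and its p-value from an F test on the deviance, so they need not correspond. Every KO-2 library lay below every KO-4 library. Such separation was required of every intron named by rule, in either direction, and so is no further result. The WT mean of 1.42% lay beside KO-2, as did KO-1 at 0% and KO-3 at 0.227%. Spliced reads at this intron alone were higher in KO-2 (log2 3.77, not tested). Those of the whole gene did not pass the test (log2 -0.00, limma adjusted p = 0.971).

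HOMER3 encodes a scaffold protein best known from synapses. Its intron 7 of 9, 350 bases with no annotated exon inside, was retained at 0%, 0% and 0.119% in KO-2, against 25.6%, 26.3% and 26.2% in KO-4. KO-2 had 1 retained read of 1114 and KO-4 had 603 of 1460, a log2 odds difference of -9.61 (exact interval -14.92 to -7.12), and the model gave an adjusted p of 1.07e-50. KO-4 stood alone among the groups at this intron: the mean was 0.0592% in WT, 0% in KO-1 and 0.111% in KO-3. The spliced reads of the whole gene did not pass the test (log2 0.03, limma adjusted p = 0.693).

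SUN1, a protein of the inner nuclear membrane that links the nucleus to the cytoskeleton, had 0%, 0.749% and 0.173% retention of intron 11 of 20, which has no annotated exon inside, in KO-2, against 10.6%, 12.1% and 13.1% in KO-4. The difference was -5.37 ± 0.87 in log2 odds (SE, adjusted p = 2.76e-21, quasi-binomial model), and the WT mean was 0.362%. STK16 encodes a serine/threonine kinase. Its intron 4 of 7, 168 bases with no annotated exon inside, had 4.76%, 3.84% and 2.42% in KO-2, against 35.5%, 30.9% and 33.6% in KO-4. This was -3.75 ± 0.34 in log2 odds (SE, adjusted p = 1.32e-25). At both introns the clones did not overlap, and WT, KO-1 and KO-3 lay beside KO-2: STK16 averaged 4.76% in WT, 4.55% in KO-1 and 2.60% in KO-3. Spliced reads per gene were lower in KO-2 for SUN1 (log2 -0.44, limma adjusted p = 1.65e-07) and higher for STK16 (log2 0.38, adjusted p = 0.000127).

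TRIM62, an E3 ubiquitin ligase of the tripartite motif family, went the other way. Its intron 4 of 4, 10525 bases with no annotated exon inside, was retained at 45.9%, 40.5% and 28.9% in KO-2, against 1.69%, 3.70% and 0% in KO-4. KO-2 had 99 retained and 80 spliced reads and KO-4 had 5 and 137, a difference of 5.08 ± 0.89 in log2 odds (SE, adjusted p = 1.59e-11, quasi-binomial model). The clones did not overlap. Here the WT mean of 0.457% and the KO-3 mean of 1.80% lay beside KO-4.

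**Figure D1:**
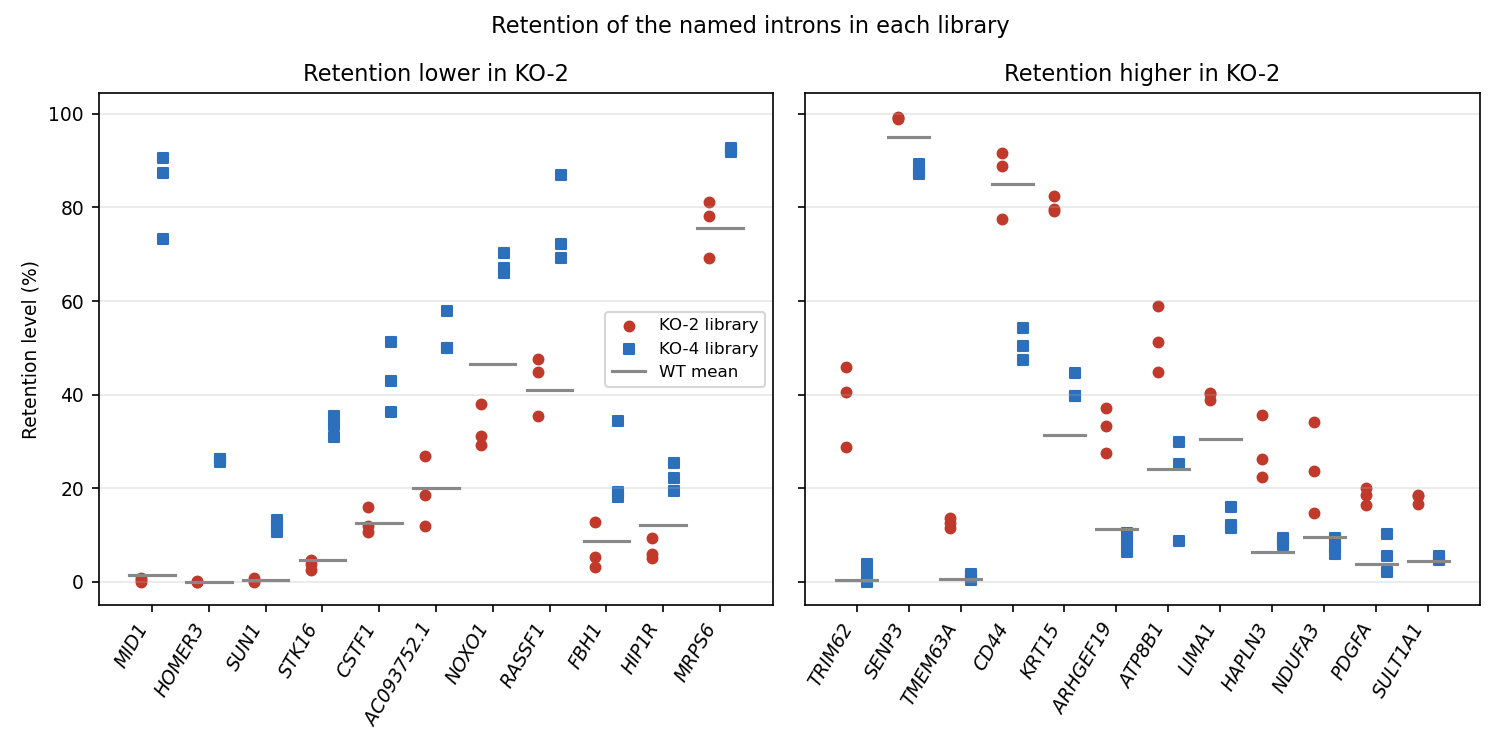
Retention level (percent) of named introns in each library of KO-2 and KO-4, with KO-2 points left of KO-4 points and a grey line at the WT mean. The left panel holds introns lower in KO-2 and the right panel introns higher in KO-2, and MID1 shows the widest gap, with 3 KO-2 libraries under 1% and 3 KO-4 libraries from 73.3% to 90.5%.

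These introns belong to a small set. Of the 25145 introns, 364 differed between the clones (1.45%, quasi-binomial model, Benjamini-Hochberg adjusted p under 0.05). Of these, 170 were higher in KO-2 (0.676%) and 194 lower (0.772%). Centred on the median intron, which was -0.07 in log2 odds, the split was 234 higher and 119 lower. Another model, limma on log2 odds of each library, called 8 higher and 8 lower, with 2326 introns at an unadjusted p under 0.05, against 2840 by the quasi-binomial model. This other model takes no account of the number of reads behind each value, so a call lost under it does not mean that the intron was poorly measured. The introns higher in KO-2 numbered 109 and 110 without the first or the second KO-2 library and 97 and 109 without the first or the second KO-4 library. The lower ones numbered 114 and 109 without the second or the third KO-2 library and 112 and 91 without the first or the second KO-4 library. Of the 24 introns named by rule, 14 were called by both, among them those of MID1, HOMER3, SUN1, STK16, CSTF1 and NOXO1, lower in KO-2, and of TRIM62, SENP3, TMEM63A, KRT15, ARHGEF19, LIMA1 and SULT1A1, higher in KO-2. The 364 introns lay in 289 genes, and 232 of them had an annotated exon inside, beside 13122 of the 25145 tested. In 347 the levels of the clones did not overlap, beside 3865 of those tested. The call itself favours introns whose levels lie apart. In 122 they differed by at least 10 percentage points (59 higher and 63 lower in KO-2), beside 915 of those tested. The median difference was 6.99 points in size, beside 1.10 over all tested introns.

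Retention in the named introns of NOXO1, CSTF1 and HIP1R was partial in both clones. NOXO1 encodes an organiser subunit of an epithelial NADPH oxidase. Its intron 6 of 7, chr16:1979543-1979789, had 29.2%, 37.9% and 31.2% in KO-2, against 70.2%, 67.1% and 66.0% in KO-4 (log2 odds -2.14 ± 0.30 SE, adjusted p = 2.13e-09, quasi-binomial model). CSTF1 encodes a subunit of the cleavage stimulation factor, which takes part in forming the 3′ end of messenger RNA. Its intron 1 of 4, chr20:56392539-56395520, had 10.6%, 15.9% and 11.9% in KO-2, against 51.4%, 36.4% and 42.9% in KO-4 (log2 odds -2.38 ± 0.53 SE, adjusted p = 0.00153). Both introns have an annotated exon inside. In both genes the lower retention stood beside more spliced reads in KO-2, by 1.21 for NOXO1 (limma adjusted p = 4.19e-07) and 0.79 for CSTF1 (adjusted p = 8.54e-08) on the log2 scale. HIP1R, which couples clathrin coats to actin, had 9.35%, 5.08% and 5.88% at intron 12 of 31, chr12:122855613-122855830 and without an annotated exon inside, in KO-2, against 25.5%, 19.4% and 22.1% in KO-4. Its spliced reads did not pass the test (log2 -0.02, adjusted p = 0.794), and its retention call did not hold with limma on log2 odds.

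The last 4 of the 12 lower introns were those of the long non-coding RNA AC093752.1 (log2 odds -2.27), the RAS-association gene RASSF1 (-2.07), the DNA helicase gene FBH1 (-2.01) and the mitochondrial ribosomal protein gene MRPS6 (-1.87), each with an annotated exon inside. Each of these calls was lost when at least 3 of the 6 libraries were left out in turn, with adjusted p up to 0.101, 0.231, 0.187 and 0.194 in that order. All 12 lower introns had a WT mean nearer to the KO-2 mean than to the KO-4 mean.

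Among introns higher in KO-2, SENP3, a protease that removes SUMO, was retained almost fully in both clones, at 99.4%, 99.1% and 98.9% in KO-2 against 87.1%, 89.2% and 87.4% in KO-4 (log2 odds 3.94 ± 0.68 SE, adjusted p = 2.18e-11, quasi-binomial model). That intron, the last of 5, is chr17:7571480-7571711, 232 bases with an annotated exon inside. TMEM63A encodes a mechanically gated ion channel. Its intron 20 of 24, chr1:225850080-225852663 and without an annotated exon inside, had 12.6%, 13.7% and 11.5% in KO-2, against 1.59%, 0.488% and 1.30% in KO-4 (log2 odds 3.70 ± 0.80 SE, adjusted p = 8.30e-07). The adjacent intron 19 averaged 15.1% in KO-2 and 3.35% in KO-4. Spliced reads of the gene were higher in KO-2 (log2 0.67, limma adjusted p = 7.42e-08), by 0.95 over its earlier introns and 0.28 over its later ones. KRT15 encodes a keratin of basal epithelial cells. Its intron 1 of 5, chr17:41518462-41521684 with an annotated exon inside, had 82.5%, 79.6% and 79.2% in KO-2, against 39.7%, 39.7% and 44.6% in KO-4 (log2 odds 2.51 ± 0.24 SE, adjusted p = 1.07e-17). Of the 4 tested introns of KRT15 this was the 1 called higher, and 2 were called lower in KO-2: intron 9, chr17:41514121-41514648, averaged 7.97% in KO-2 and 17.5% in KO-4, and intron 4, chr17:41516965-41517082, averaged 9.14% in KO-2 and 16.8% in KO-4. No level of KO-2 overlapped with one of KO-4 at any of these introns. The naming rule required this of the first intron given for each gene. At KRT15 intron 1 the WT, KO-1 and KO-3 means were 31.3%, 37.1% and 47.1%, beside KO-4. At TMEM63A intron 20 they were 0.529%, 0% and 1.51%.

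CD44, the hyaluronan receptor, had 88.8%, 91.6% and 77.6% at intron 5, chr11:35190066-35211245, in KO-2, against 54.3%, 47.4% and 50.4% in KO-4, and WT was at 85.0%. This intron spans the annotated variable exons of CD44, so its boundary reads can come from transcripts that use those exons. LIMA1, an actin cross-linking protein, had 38.8%, 40.1% and 40.4% at intron 3, chr12:50222486-50231664, in KO-2, against 11.4%, 12.2% and 16.0% in KO-4. ARHGEF19, a guanine nucleotide exchange factor, had 33.2%, 27.5% and 37.1% at the 76-base intron 4, chr1:16207599-16207674, in KO-2, against 8.59%, 10.4% and 6.34% in KO-4. The 3 genes passed the model at adjusted p of 1.22e-05, 4.24e-09 and 0.000644, with log2 odds differences of 2.52, 2.13 and 2.44 in that order. In each the clones did not overlap, as the naming rule required. The calls of LIMA1 and ARHGEF19 held with limma on log2 odds and that of CD44 did not. LIMA1 intron 3 has an annotated exon inside and ARHGEF19 intron 4 has none.

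SULT1A1, a phenol sulfotransferase, joined more retention to fewer spliced reads. Intron 3 of 9, chr16:28608860-28609930, had 16.7%, 18.5% and 18.2% in KO-2, against 5.22%, 5.56% and 4.63% in KO-4 (log2 odds 1.99, adjusted p = 2.52e-05), while the gene was lower in KO-2 by 2.41 on the log2 scale (limma adjusted p = 2.35e-13). SULT1A1 has near-identical paralogs, and how reads shared among them were counted is not given in the sources used here. HAPLN3, a hyaluronan link protein, was alike in direction, with 22.4%, 35.6% and 26.2% at intron 4, chr15:88879270-88881356, in KO-2, against 9.36%, 7.77% and 8.82% in KO-4, and a gene change of -1.51 (adjusted p = 5.09e-07). An annotated exon lies inside both introns. The last 3 introns on the list, also with one inside, were in the phospholipid flippase ATP8B1 (log2 odds 2.20), the complex I subunit NDUFA3 (2.01) and the growth factor PDGFA (1.999). The calls of HAPLN3, ATP8B1, NDUFA3 and PDGFA were lost without at least 1 library, with adjusted p up to 0.103, 0.223, 0.130 and 0.272 in that order.

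**Figure D2:**
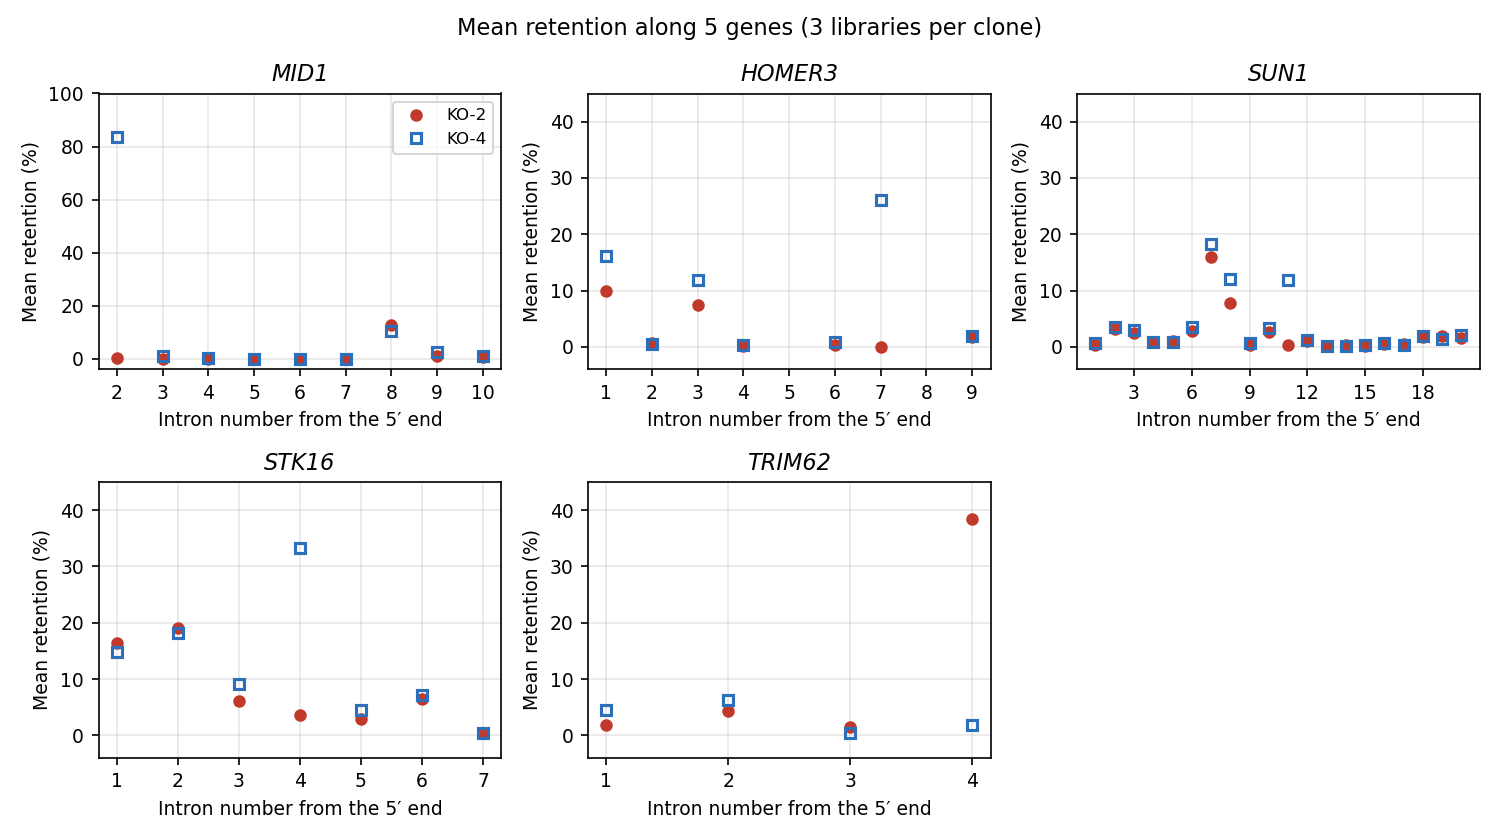
Mean retention level (percent) of introns along MID1, HOMER3, SUN1, STK16 and TRIM62, KO-2 as red circles and KO-4 as blue open squares. Only listed introns of the transcript form with the most introns are drawn, numbered from its 5′ end, 1 for each number. Introns of other forms, among them those of SUN1 at chr7:852668-852809 and chr7:852668-852812, are not drawn. The clones part at MID1 intron 2 (0.455% in KO-2 and 83.7% in KO-4), HOMER3 intron 7 (0.0398% and 26.0%), SUN1 intron 11 (0.307% and 11.9%), STK16 intron 4 (3.67% and 33.3%) and TRIM62 intron 4 (38.4% and 1.80%).

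Along these genes few other introns differed. In SUN1 an intron at chr7:852668-852809, just upstream of intron 11, averaged 21.9% in KO-2 and 35.6% in KO-4, and a second form of it that ends 3 bases later averaged 39.8% in KO-2 and 58.1% in KO-4. In HOMER3 intron 3, chr19:18938485-18938727, averaged 7.51% in KO-2 and 11.8% in KO-4. These passed the test in the same direction, and no other tested intron of these genes did.

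Several introns with smaller shifts were measured precisely. HSP90B1 encodes the endoplasmic reticulum chaperone GRP94. Its intron 13 of 17, chr12:103943320-103943737 and without an annotated exon inside, had 14.4%, 14.2% and 13.8% in KO-2, against 7.31%, 8.20% and 7.57% in KO-4, a difference of 0.99 ± 0.06 in log2 odds (SE, adjusted p = 3.54e-37, quasi-binomial model). The WT mean was 8.07%. BAX, the pore-forming protein of apoptosis, was higher in KO-2 at its first 3 introns. Intron 2, chr19:48955600-48955686, had 30.3%, 29.9% and 29.8% in KO-2, against 13.3%, 8.72% and 10.9% in KO-4 (1.81 ± 0.21 SE, adjusted p = 5.99e-13), and the WT mean was 10.0%. Intron 1 averaged 25.2% in KO-2 and 8.39% in KO-4, and intron 3 averaged 7.68% and 3.62%. Of the 3, intron 1 has an annotated exon inside. BAX also had fewer spliced reads in KO-2, at 36.7, 39.3 and 34.8 CPM against 66.0, 69.6 and 69.6 in KO-4 (log2 -0.89, limma adjusted p = 1.91e-09). The levels of the clones did not overlap for any of these BAX values. The calls of HSP90B1 and BAX introns 1 and 2 held without any 1 library but not with limma on log2 odds.

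Retention calls were set beside the gene calls. Of the 169 introns higher in KO-2 whose gene was tested, 80 lay in a gene with fewer spliced reads in KO-2 and 40 in a gene with more. Of the 192 lower introns, 28 lay in a gene with fewer and 110 in a gene with more. Over all 24843 tested introns of tested genes, 6069 lay in genes with fewer and 6682 in genes with more. The retention level and the gene measure share the same spliced reads, so these counts are not independent.

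Over all tested introns 0.676% were higher and 0.772% lower in KO-2, and the gene lists were read beside these shares. DNA repair genes held 8 introns higher (7.08%) and 0 lower in KO-2 among 113 tested. Of the 8, 5 were the last introns 38 to 42 of FANCA, a Fanconi anaemia core protein, each with an annotated exon inside. FANCA intron 42, chr16:89738709-89738881, had 58.3%, 50.2% and 52.6% in KO-2, against 36.9%, 39.6% and 39.4% in KO-4 (log2 odds 0.88, adjusted p = 4.62e-05, quasi-binomial model). The FANCA end overlaps ZNF276 on the other strand, and whether the counting used strand is not given in the sources used here. SR proteins, hnRNPs and CLK kinases, which steer splice site choice, held 9 introns higher (3.40%) and 1 lower (0.377%) among 265. HNRNPD intron 8 had the smallest p, at 10.4%, 10.3% and 8.97% in KO-2 against 5.36%, 6.22% and 4.46% in KO-4 (log2 odds 0.95, adjusted p = 1.83e-13), and SRSF7 intron 3 averaged 21.3% in KO-2 and 15.5% in KO-4. Many genes of this list carry cassette exons that send the transcript to decay, and an annotated exon lies inside both introns. Neither of these calls held with limma on log2 odds, nor did those of FANCA introns 38 and 42.

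The snoRNA host genes, whose introns are processed into small nucleolar RNAs, went the other way, with 1 intron higher (0.676%) and 11 lower (7.43%) in KO-2 among 148, beside 0.676% and 0.772% of all tested introns. GAS5 held 4 of the lower ones, and its intron 11 had 26.0%, 24.8% and 23.4% in KO-2, against 30.6%, 30.5% and 30.5% in KO-4 (log2 odds -0.43, adjusted p = 4.80e-06, quasi-binomial model). SNHG29 intron 3 had 13.4%, 14.5% and 13.5% in KO-2, against 26.1%, 24.7% and 23.2% in KO-4 (-1.04, adjusted p = 7.21e-07). GAS5 intron 11 has no annotated exon inside and SNHG29 intron 3 has one, and neither call held with limma on log2 odds. The other lower introns were in SNHG29, SNHG1, SNHG32 and ZFAS1, and the 1 higher was EIF4A2 intron 10. In cholesterol synthesis genes 2 introns were higher (1.32%) and 5 lower (3.31%) among 151, with 4 of the lower ones in FDPS. Ribosomal protein genes of the large subunit had 4 higher and 4 lower among 240 (1.67% each), and those of the small subunit 3 higher (1.84%) and 2 lower (1.23%) among 163.

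Introns of genes with known U12-type introns gave 4 calls higher (1.95%) and 3 lower (1.46%) in KO-2 among 205 tested, beside 0.676% and 0.772% of all tested introns. The higher ones were in PSMA1, TMEM258 and UFD1, and 2 of the lower ones were in MAPK12. PSMA1 intron 7 averaged 3.67% in KO-2, 1.83% in KO-4, 1.15% in WT, 4.37% in KO-1 and 2.31% in KO-3. TMEM258 intron 1 averaged 12.5% in KO-2, 8.53% in KO-4, 3.48% in WT, 15.7% in KO-1 and 9.06% in KO-3. The differences from WT were not tested, and levels of the other called introns are not given here. The calls of PSMA1 intron 7 and TMEM258 intron 1 did not hold with limma on log2 odds, and that of TMEM258 was also lost without the first KO-2 or the first KO-4 library. The list's median log2 odds per library was -2.22, -2.22 and -2.42 in KO-2, against -2.47, -2.33 and -2.53 in KO-4, so 2 KO-2 libraries lay above all of KO-4 and the third did not. The difference of the means was 0.15, with an exact two-sided permutation p of 0.2, where no split of 6 libraries can go below 0.1. The median of the fitted differences had the opposite sign, at -0.04, beside -0.07 over all tested introns. Which introns of these genes are U12-type was not determined here. The 15 tested minor spliceosome genes held 22 tested introns, none of which was called, and the lowest adjusted p among the named ones was 0.293 at RNPC3 intron 12, at 17.9%, 12.5% and 13.9% in KO-2 against 7.94%, 8.89% and 1.30% in KO-4.

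Spliced reads were then compared gene by gene. Of 10174 genes, 4288 passed the test (42.1%, limma voom, Benjamini-Hochberg adjusted p under 0.05), 2144 higher in KO-2 (21.1%) and 2144 lower (21.1%). Most differences were small, with a median size of 0.33 on the log2 scale, and 74 genes were at least 2-fold higher in KO-2 and 91 at least 2-fold lower. The CPM values are scaled by trimmed mean of M values, except those over introns common to all clones, which are scaled by total count. The median log2 ratio over all genes was 0.00. Scaled by total count, an alternative chosen after seeing the data, it was -0.03, with 1836 genes higher and 2557 lower. In such bulk RNA, fewer cells expressing a gene and less of its RNA per cell cannot be told apart.

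**Figure D3:**
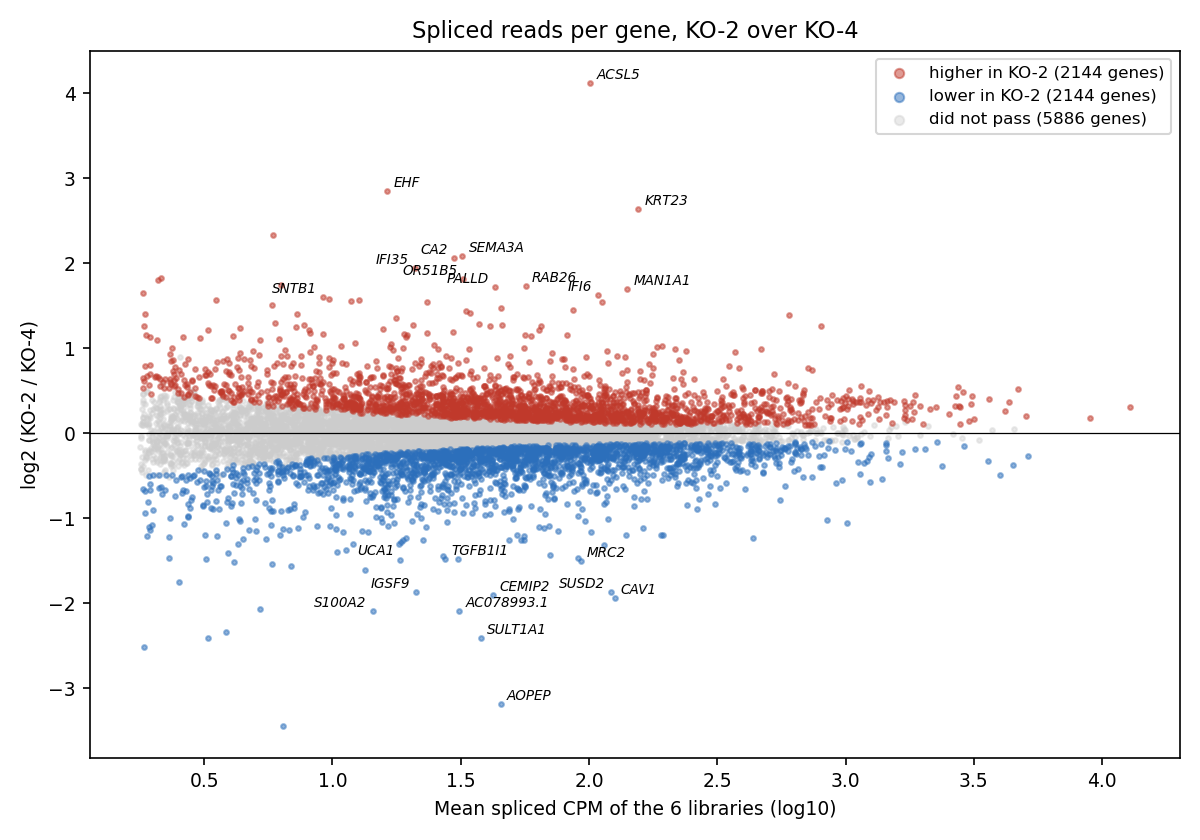
Log2 ratio of spliced reads, KO-2 over KO-4 (vertical axis), against the log10 of the mean CPM of the 6 libraries, for the 10174 genes tested, with red for higher in KO-2, blue for lower and grey for genes that did not pass. ACSL5 stands at the top at 4.12 and AOPEP is the lowest of the labelled genes at -3.18.

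ACSL5, which activates long-chain fatty acids to acyl-CoA and whose introns span chr10:112408522-112427217, had 180, 189 and 206 CPM in KO-2, against 8.73, 11.4 and 13.5 in KO-4. This 17.4-fold difference (log2 4.12 ± 0.11 SE, limma adjusted p = 1.65e-15) was the largest rise named. WT averaged 183, so KO-4 was the low group. Over introns listed in all 4 tables, KO-1 was also low at 21.7 CPM and KO-3 was at 230, beside 194 in KO-2, 11.6 in KO-4 and 186 in WT. AOPEP, an aminopeptidase with introns from chr9:95005221-95086681, was the counterpart, with 8.95, 8.50 and 9.32 in KO-2, against 77.9, 78.8 and 87.7 in KO-4 (log2 -3.18 ± 0.09 SE, adjusted p = 3.07e-15). Its 7 introns listed for both clones start at intron 11 of 15, so these values cover the 3′ part of the gene alone. WT averaged 8.48, beside KO-2. Over common introns KO-3 had 23.9 and KO-1 10.9 CPM, beside 9.01 in KO-2, 84.5 in KO-4 and 8.62 in WT. Neither gene's groups overlapped.

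EHF and KRT23 followed among the genes higher in KO-2. EHF, an epithelial transcription factor of the ETS family, had 29.3, 29.9 and 27.0 CPM in KO-2, against 3.66, 4.05 and 4.23 in KO-4 (log2 2.85, limma adjusted p = 5.32e-13). KRT23, a keratin, had 285, 270 and 249 in KO-2, against 47.3, 37.4 and 44.5 in KO-4 (log2 2.64, adjusted p = 2.24e-15). Both were higher in KO-2 than in WT as well, by their means: EHF averaged 28.7 in KO-2 and 7.97 in WT, and KRT23 averaged 268 in KO-2 and 66.9 in WT, which was not tested. CA2, a carbonic anhydrase, had 49.4, 46.5 and 47.7 in KO-2, against 10.9, 11.5 and 12.04 in KO-4, and WT was at 40.0. MAN1A1, a Golgi mannosidase that trims N-glycans, had 215, 220 and 211 in KO-2, against 62.4, 68.2 and 69.0 in KO-4, with WT between them at 124. PALLD, an actin-binding scaffold, had 63.1, 64.9 and 70.4 in KO-2, against 19.2, 20.3 and 20.7 in KO-4, and both clones were under the WT mean of 136. The clones did not overlap for any of these genes.

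SEMA3A, a secreted guidance cue, averaged 52.0 ± 2.52 CPM in KO-2 and 12.3 ± 1.27 in KO-4 (SD, n = 3 each). RAB26, a small GTPase of secretory vesicles, averaged 87.2 ± 6.71 in KO-2 and 26.2 ± 2.99 in KO-4. SNTB1, a dystrophin-associated syntrophin, averaged 13.8 ± 0.186 in KO-2 and 4.56 ± 0.957 in KO-4. These 3 genes were 4.24-fold, 3.33-fold and 3.04-fold higher in KO-2. OR51B5, an olfactory receptor gene beside the beta-globin cluster, averaged 50.4 ± 1.89 in KO-2, 14.3 ± 1.27 in KO-4 and 51.0 in WT, and its introns overlap those of other transcripts of that locus, so which transcript the reads come from is uncertain.

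The genes lower in KO-2 included CAV1, MRC2 and TGFB1I1. CAV1, the main coat protein of caveolae, had 50.5, 52.5 and 52.7 CPM in KO-2, against 190, 198 and 211 in KO-4 (log2 -1.94, limma adjusted p = 3.07e-15), and WT was at 67.0. MRC2, a receptor that takes up collagen, had 49.6, 47.2 and 47.6 in KO-2, against 152, 144 and 116 in KO-4, and TGFB1I1, a focal adhesion adaptor, had 14.8, 13.7 and 14.8 in KO-2, against 46.6, 40.6 and 34.3 in KO-4. For MRC2 and TGFB1I1 the WT means of 47.0 and 12.03 lay beside KO-2. SUSD2, a membrane protein, had 61.1, 53.4 and 42.6 in KO-2, against 234, 198 and 142 in KO-4. Over common introns KO-1 was higher still at 285 CPM, beside 167 in KO-4 and 44.6 in KO-2. No KO-2 library overlapped with a KO-4 library in these genes.

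SULT1A1 had 13.2, 12.005 and 10.9 CPM in KO-2, against 67.8, 64.4 and 58.5 in KO-4, with a WT mean of 46.6 beside KO-4. UCA1, a long non-coding RNA, averaged 9.64 ± 0.191 in KO-2, 27.1 ± 2.42 in KO-4 (SD, n = 3 each) and 32.1 in WT, also beside KO-4. S100A2, a calcium-binding protein, averaged 5.44 ± 0.305 in KO-2 and 23.3 ± 1.66 in KO-4. AC078993.1, CEMIP2 and IGSF9 were 4.25-fold, 3.73-fold and 3.66-fold lower in KO-2. All 24 genes named by rule kept their call without any 1 library.

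**Figure D4:**
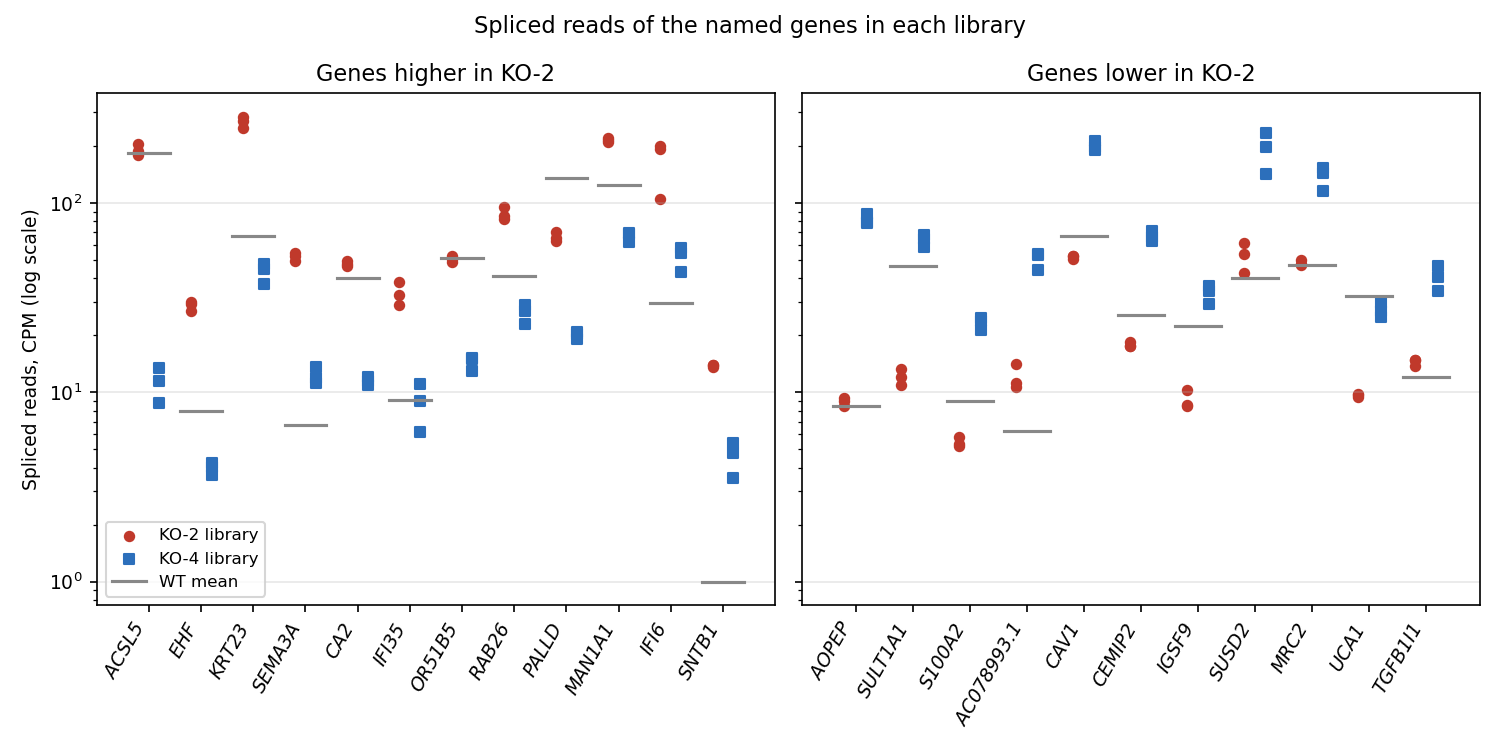
Spliced reads as CPM (log axis) of named genes in each library, with KO-2 points left of KO-4 points and a grey line at the WT mean. ACSL5 shows 3 KO-2 libraries from 180 to 206 and 3 KO-4 libraries from 8.73 to 13.5, and AOPEP the reverse, from 8.50 to 9.32 in KO-2 and from 77.9 to 87.7 in KO-4.

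Set beside WT, neither clone was the odd one throughout. Of the 74 genes at least 2-fold higher in KO-2, the WT mean was nearer to the KO-2 mean in 37 and to the KO-4 mean in 37. Of the 91 at least 2-fold lower, it was nearer to KO-2 in 67 and to KO-4 in 24. Of the 170 introns higher in KO-2, WT lay nearer to KO-2 in 59 and to KO-4 in 111, and of the 194 lower introns nearer to KO-2 in 128 and to KO-4 in 66. These are positions of means with no test.

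Ribosomal protein genes, which build the 2 subunits of the ribosome, were higher in KO-2. All 44 tested genes of the large subunit and all 32 of the small subunit passed the test, beside 21.1% of all genes called higher, with medians of 0.39 and 0.38 on the log2 scale beside 0.00 over all genes, and they did so without any 1 library and under total count scaling. RPL13A had 5693, 5568 and 5338 CPM in KO-2, against 3852, 3823 and 3886 in KO-4 (log2 0.52, limma adjusted p = 1.56e-10). RPS23 had 816, 844 and 767 in KO-2, against 564, 564 and 581 in KO-4 (log2 0.50, adjusted p = 1.09e-08). WT averaged 5020.4 for RPL13A and 779 for RPS23, nearer to KO-2 in both.

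The snoRNA host genes moved the same way. Of 18 tested, 16 were higher and 0 lower, beside 21.1% of all genes in each direction, with a median of 0.57. SNHG29 had 917, 936 and 853 CPM in KO-2, against 513, 529 and 542 in KO-4 (log2 0.77, limma adjusted p = 3.40e-11). GAS5 had 698, 757 and 697 in KO-2, against 480, 467 and 478 in KO-4 (log2 0.59, adjusted p = 1.32e-09). Some of these hosts carry a 5′ terminal oligopyrimidine tract, as ribosomal protein genes do. In oxidative phosphorylation genes 32 of 43 were higher and 2 lower (median 0.22), among them NDUFB5, a complex I subunit with 135, 140 and 140 in KO-2 against 93.4, 98.0 and 90.2 in KO-4. The box C/D snoRNP genes, which build the particles that guide RNA 2′-O-methylation, had 3 of 13 higher (23.1%) and 0 lower (median 0.09). Their higher share was near the 21.1% of all genes, and 2 to 4 were higher without 1 library.

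Of 26 tested p53 target genes, 19 were higher in KO-2 (73.1%) and 2 lower (7.69%), beside 21.1% of all genes in each direction, with a median of 0.44. CDKN1A, the cyclin-dependent kinase inhibitor p21, had 106, 120 and 112 CPM in KO-2, against 50.1, 52.4 and 49.7 in KO-4 (log2 1.15, limma adjusted p = 1.77e-11), and WT was at 56.0. GDF15, a secreted stress cytokine, had 47.2, 49.8 and 60.8 in KO-2, against 20.05, 22.9 and 21.9 in KO-4 (log2 1.28, adjusted p = 2.34e-09). FDXR, a mitochondrial reductase, had 207, 208 and 208 in KO-2, against 134, 145 and 135 in KO-4. BAX was 1 of the 2 lower. The S phase and mitosis genes ran opposite, with 0 of 34 higher and 29 lower (median -0.25). MCM7, a subunit of the replicative helicase, had 712, 699 and 683 in KO-2, against 923, 908 and 925 in KO-4 (log2 -0.40, adjusted p = 5.23e-08), and the mitotic kinase gene AURKB averaged lower by 0.39 (adjusted p = 1.38e-06).

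Interferon response genes were higher in 13 of 16 tested and lower in 0, beside 21.1% of all genes in each direction, with a median of 0.69. IFI6, a mitochondrial interferon-induced protein, had 201, 193 and 104 CPM in KO-2, against 54.1, 57.7 and 42.9 in KO-4 (log2 1.62, limma adjusted p = 5.76e-07). The third KO-2 library was the lowest of its clone here, and the list's median deviation per library was 0.47, 0.40 and 0.07 in KO-2, against -0.18, -0.29 and -0.40 in KO-4. Leaving out libraries in turn gave 12 to 15 genes higher. IFI35 was higher by 1.94 (adjusted p = 3.83e-09). Among antigen presentation genes 8 of 12 were higher and 1 lower (median 0.21), with 4 higher without the second KO-2 library and 5 without the third KO-4 library. TAP1, the peptide transporter, was higher by 0.41 (adjusted p = 1.12e-05).

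**Figure D5:**
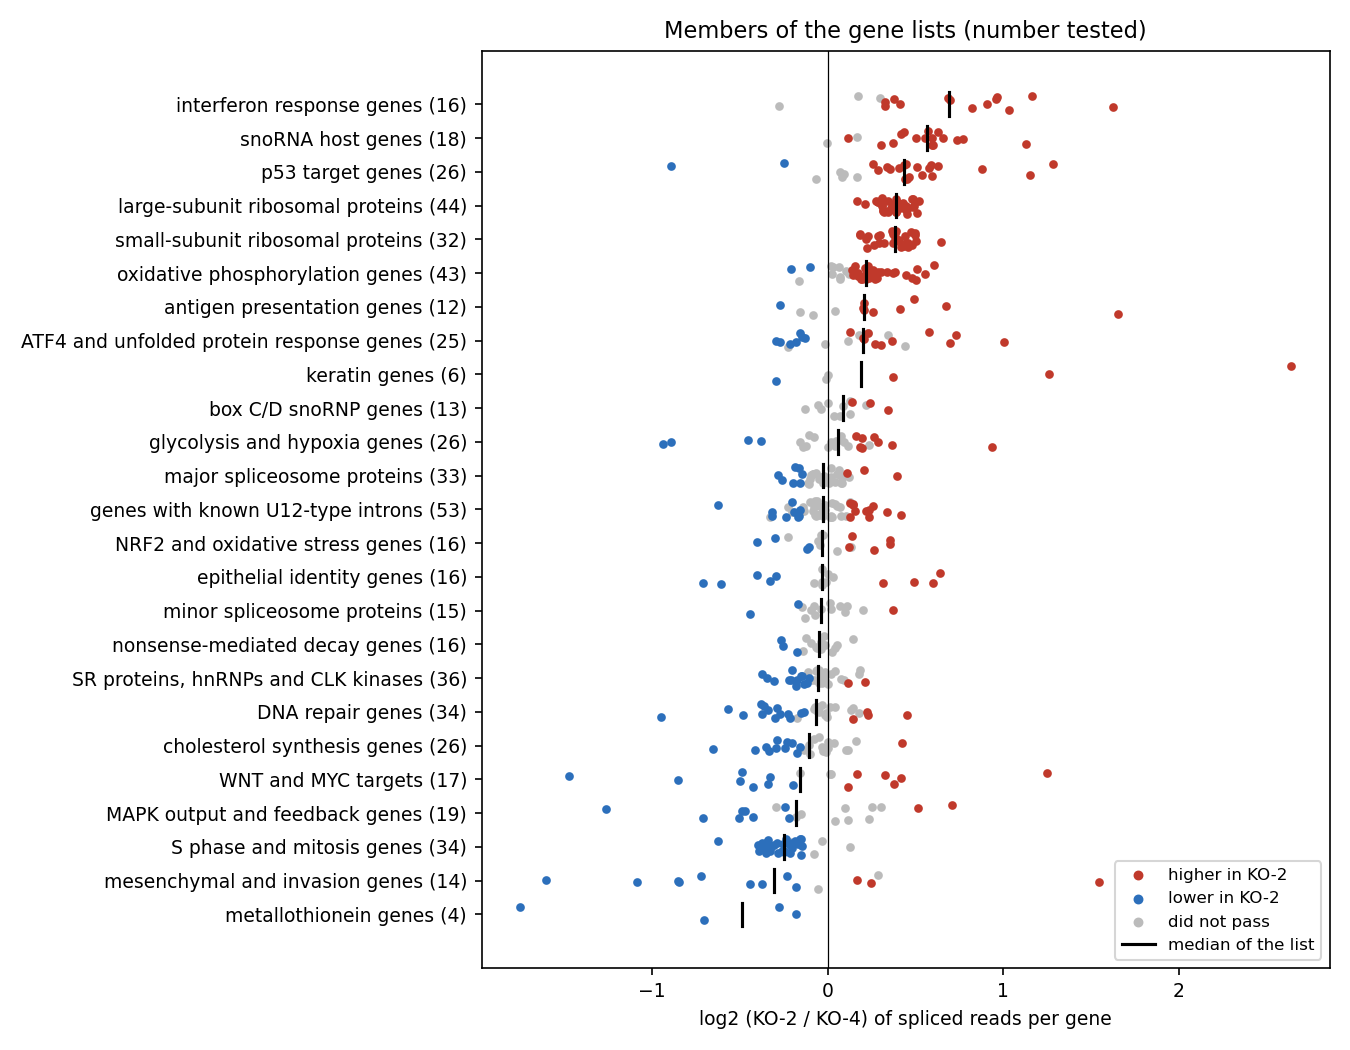
Log2 ratio of spliced reads per gene, KO-2 over KO-4, for the tested members of the gene lists, with points for genes and a mark at each list's median. The ribosomal protein genes lie wholly above 0 (medians 0.39 and 0.38), the S phase and mitosis genes lie almost wholly below it (median -0.25), and the interferon response genes have the highest median at 0.69.

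Mesenchymal and invasion genes were lower in 9 of 14 tested (64.3%) and higher in 3 (21.4%), beside 21.1% of all genes in each direction, with a median of -0.30. The fibroblast marker COL1A1 and the leukocyte marker CORO1A were lower as well (log2 -0.44 and -0.999), and their part in this result was not tested. FN1, the matrix protein fibronectin, had 44.8, 44.3 and 43.7 CPM in KO-2, against 110, 99.5 and 74.7 in KO-4 (log2 -1.08, limma adjusted p = 7.42e-08). AXL, a receptor tyrosine kinase, had 41.8, 40.0 and 44.98 in KO-2, against 79.6, 77.4 and 71.9 in KO-4 (log2 -0.85, adjusted p = 3.88e-09). SPARC, a matrix glycoprotein, went against the list with 185, 167 and 147 in KO-2, against 85.3, 52.1 and 39.7 in KO-4 (log2 1.55, adjusted p = 1.03e-07), and WT was at 10.2. The epithelial identity genes divided into 4 higher (25%) and 5 lower (31.2%) of 16 (median -0.03). ELF3, an epithelial ETS factor, was lower by 0.61 (adjusted p = 1.65e-06). Of the 6 keratin genes tested, 3 were higher and 1, KRT19, was lower.

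MAPK output and feedback genes were lower in 8 of 19 (42.1%) and higher in 2 (10.5%), beside 21.1% of all genes in each direction (median -0.18). FOSL1, an AP-1 subunit, had 34.7, 27.7 and 36.1 CPM in KO-2, against 83.1, 76.9 and 74.9 in KO-4 (log2 -1.26, limma adjusted p = 3.35e-10). AREG, a ligand of the EGF receptor, went the other way at 158, 166 and 174 in KO-2, against 95.0, 94.7 and 118 in KO-4 (log2 0.71, adjusted p = 7.72e-08). WNT and MYC targets had 6 higher (35.3%) and 8 lower (47.1%) of 17 (median -0.16). The feedback genes of the WNT pathway parted: NOTUM, which inactivates WNT ligands, and AXIN2, a scaffold of the destruction complex, were lower by 1.48 (adjusted p = 2.39e-08) and 0.85 (adjusted p = 7.88e-07), while RNF43, which removes WNT receptors, was higher by 1.25 (adjusted p = 6.50e-07).

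DNA repair genes were lower in 14 of 34 (41.2%) and higher in 4 (11.8%), beside 21.1% of all genes in each direction (median -0.07). MSH6, a mismatch recognition protein, had 45.8, 46.8 and 45.9 CPM in KO-2, against 87.9, 88.2 and 90.9 in KO-4 (log2 -0.95, limma adjusted p = 1.03e-10), and WT lay between at 63.4. FANCI was lower by 0.38 (adjusted p = 8.58e-07). In SR proteins, hnRNPs and CLK kinases 13 of 36 were lower (36.1%) and 2 higher (5.56%, median -0.05), led by HNRNPH3 with 265, 275 and 268 in KO-2 against 359, 332 and 355 in KO-4 (log2 -0.37, adjusted p = 1.23e-06). The major spliceosome had 7 of 33 lower (21.2%) and 3 higher (9.09%, median -0.02), and nonsense-mediated decay genes 3 of 16 lower (18.8%) and 0 higher (median -0.05), so the lower share of both lists was near that of all genes.

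The minor spliceosome proteins had 1 of 15 higher (6.67%) and 2 lower (13.3%, median -0.04). ZCRB1 had 65.5, 65.2 and 63.7 CPM in KO-2, against 72.8, 72.0 and 73.9 in KO-4 (log2 -0.17, limma adjusted p = 0.0150). ZRSR2, which recognises 3′ splice sites of U12-type introns, had 7.35, 10.8 and 6.81 in KO-2, against 11.0, 11.9 and 10.2 in KO-4, so the clones overlapped (log2 -0.44, adjusted p = 0.0152). RBM41 was higher by 0.37 (adjusted p = 0.0365). All 3 calls were lost without at least 1 library. Genes with known U12-type introns had 11 higher and 9 lower of 53 (median -0.03), beside 21.1% of all genes in each direction, and 6 or 7 higher without any 1 library.

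Metabolic and stress lists were mixed, and their shares stand beside 21.1% of all genes in each direction. In cholesterol synthesis genes 11 of 26 were lower (42.3%) and 1 higher (3.85%, median -0.10), with TM7SF2, a sterol reductase, higher by 0.42 (limma adjusted p = 5.40e-06). Glycolysis and hypoxia genes had 8 higher (30.8%) and 4 lower (15.4%) of 26 (median 0.06): ALDOC, an aldolase, was higher by 0.94 (adjusted p = 1.60e-09), and ENO2, an enolase, had 65.4, 66.6 and 64.9 CPM in KO-2 against 124, 122 and 120 in KO-4. ATF4 and unfolded protein response genes had 11 higher (44%) and 7 lower (28%) of 25 (median 0.20). DDIT4, an inhibitor of mTORC1, had 67.5, 77.6 and 78.8 in KO-2, against 34.9, 40.2 and 36.7 in KO-4 (log2 1.00, adjusted p = 2.08e-09). NRF2 and oxidative stress genes had 5 higher (31.2%) and 4 lower (25%) of 16 (median -0.03), though only 1 higher without the third KO-2 or the first KO-4 library, with the quinone reductase NQO1 lower by 0.40 (adjusted p = 8.12e-08). All 4 metallothionein genes tested, which bind zinc and copper, were lower (median -0.49), and MT1F had 0.959, 1.27 and 1.22 in KO-2, against 3.73, 4.37 and 3.59 in KO-4. No list's median changed sign under the other scalings.

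Grouped by chromosome, the median over genes was highest for chromosome 9 at 0.05 on the log2 scale, with 115 of 408 genes higher (28.2%) and 73 lower (17.9%), and lowest for chromosome 13 at -0.06, with 21 of 167 higher (12.6%) and 44 lower (26.3%). The medians of KO-2 and KO-4 libraries did not overlap for chromosomes 9, 10, 12, 13 and 15, where the exact two-sided permutation p was 0.1, the smallest that 3 against 3 libraries can give, and 0.46 after adjustment over 23 chromosomes.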

How the data were processed

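Polyadenylated RNA was sequenced from a directional kit, per the labels' protocols. The submitters' processing notes name cutadapt 2.0, STAR 2.7.1a and hg38, and the sources used here do not name the counting tool. For each clone the authors deposited a table with raw counts of retained and spliced junction reads, 3 libraries in each cell. The deposited retention levels are fractions after division by the deposited effective lengths, and levels recomputed from the counts differed by at most 0.0005. The lowest number of junction reads of a listed intron in a library was 20, and introns under that were not analysed here. Intron numbers and exons inside introns came from GENCODE 29, in which 94884 of the 95157 shared introns were found.

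The members and lists were chosen with earlier results of these data known. Retention was tested as the odds of a retained against a spliced read in a quasi-binomial model, with the dispersion moderated toward a trend over introns with limma 3.58.1 in R 4.3.3. Its p-values thus draw on the spread over introns as well as on an intron's own libraries. They come from an F test on the deviance, while the SE comes from the summed counts of each clone, scaled by that dispersion. Genes were tested with limma voom on summed spliced reads scaled by trimmed mean of M values, in place of the count test planned. CPM values are these counts over the scaled library size, or over the total count where given for common introns, and 0.5 was added before log2. Two-sided p-values were adjusted by Benjamini-Hochberg over all introns or genes, with a threshold of 0.05. Both tests were tested on simulated data. Single values were compared by exact permutation tests (scipy 1.17.1). Named by rule were the 12 introns with the largest changes in each direction, at most 1 per gene, whose clones differed by at least 10 percentage points without overlap, the 12 genes with the largest changes in each direction among those called with a mean of at least 200 reads, and up to 4 genes and 2 introns of each list. Some genes and introns that this rule names are not reported here. Alternatives changed the filter, scaling, test, threshold, introns summed and libraries. Libraries carry no numbers and are given in the order listed.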

Additional observations from a re-analysis of the deposited data

How the results depend on the processing

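No paired analysis was possible because the columns carry no replicate numbers. The edgeR and DESeq2 fits planned were not run, and limma voom took their place. Introns higher in KO-2 numbered 170, and 8 with limma on log2 odds, 95 at an adjusted p of 0.01, 52 among introns of 1 gene that share no end with another, and 97 to 146 without 1 library. Introns lower numbered 194, and 8, 88, 63 and 91 to 193 under the same settings, and 119 when centred on the median intron. Added after seeing the data, taking an intron's own dispersion where larger gave 111 higher and 125 lower, and introns with no annotated exon inside gave 38 higher and 55 lower. The cause was not tested, except that the narrower sets hold fewer introns. Of genes, 74 were higher and 91 lower by 2-fold or more, 1205 and 1153 when only introns tested for retention were summed, and 1818 to 1958 and 1838 to 2026 without 1 library. With no filter, a higher one, median-of-ratios scaling, limma with a trend, introns of 1 gene that share no end and, added after seeing the data, total count scaling and a quasi-Poisson model, gene counts stayed within 1.5 times. The chromosome 9 median was 0.05, and 0.0342 to 0.0505 without 1 library. That of chromosome 13 was -0.06, from -0.0703 to -0.0506 without 1 library, and -0.0571 at a mean of 200 reads. The median fitted change of introns in genes with known U12-type introns ranged from -0.07 to 0.06 and changed sign. Over the named introns, 39 of the values without 1 library and 47 under other settings lost a call, and 8 and 3 gained one. Over the named genes, 17 and 85 lost a call, and 4 and 1 gained one. No result reversed its call. Introns near 10 retained reads give wide intervals, so small differences there were not detectable at this depth.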

Other observations

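Some introns with low retention in both clones differed clearly, and these were chosen after their values were seen. PHB, a mitochondrial inner membrane scaffold gene, had 0.545%, 0.498% and 0.365% at intron 6 of 7 in KO-2, against 5.53%, 4.69% and 4.18% in KO-4 (adjusted p = 4.36e-43, quasi-binomial model). The WT mean was 0.617%, beside KO-2. NIT2, an amidase gene, had 0.744%, 0.582% and 0.226% at intron 7 of 9 in KO-2, against 3.31%, 5.68% and 3.56% in KO-4 (adjusted p = 7.04e-09). ANO1, a calcium-activated chloride channel gene, went the other way at intron 17 of 25, with 5.37%, 4.26% and 4.33% in KO-2, against 0.323%, 0.619% and 0.121% in KO-4 (adjusted p = 2.52e-13). In none of the 3 did the clones overlap, and each missed the 10 points of the naming rule.

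Some genes below the naming rule's minimum of reads changed as much as the named ones, and these too were picked from their values. EMP1, an epithelial membrane protein gene, had 0.799, 1.30 and 1.16 CPM of spliced reads in KO-2, against 13.5, 11.5 and 10.3 in KO-4 (log2 -3.44 ± 0.19 SE, limma adjusted p = 4.77e-11). ZBED2, a zinc finger gene, had 10.2, 9.22 and 9.99 in KO-2, against 1.59, 2.20 and 2.08 in KO-4 (log2 2.33 ± 0.15 SE, adjusted p = 5.94e-10). HBE1, the embryonic beta-type globin gene beside OR51B5, had 48.4, 48.9 and 48.7 in KO-2, against 19.1, 17.7 and 17.0 in KO-4, and shares introns with that locus.

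Genes listed for 1 clone alone entered no test. The KO-2 table listed 16 genes with at least 3 introns that the KO-4 table did not, and the KO-4 table listed 18 that the KO-2 table did not. SULF2, a heparan sulfate sulfatase gene, had 14 introns with 405, 453 and 484 spliced reads in KO-2, and 460, 506 and 471 in WT. SCML1 had 5 introns with 717, 744 and 690 reads in KO-2, and 192, 197 and 195 in WT. PXDN, a matrix peroxidase gene, had 14 introns with 1379, 1240 and 1099 reads in KO-4, and 647, 860 and 684 in WT. SLC1A3, a glutamate transporter gene, had 9 introns with 1573, 1129 and 1100 reads in KO-4, and 305, 331 and 389 in WT. Their levels in the other clone were not analysed here.

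The change of a gene was nearly even along most transcripts. Among 4671 genes with at least 6 introns of at least 30 mean spliced reads, the log2 change of the later introns minus that of the earlier ones had an SD of 0.137 over genes, and differed by at least 0.5 in 25. PHC2, a Polycomb gene, was the extreme, with 1.66 over its earlier introns and 0.15 over its later ones. TMEM63A had 0.95 and 0.28, and KHK, the fructokinase gene, had -0.65 and -0.05. These values were not tested.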
